A study of Mus musculus with 6 samples.

Results

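The 44 genes described here encode the proteins that carry a cell through mitosis: the cyclins and kinases that start it, the kinetochore that ties chromosomes to the spindle, the checkpoint that waits for attachment, the motors and bundlers of the spindle, and the machinery of cytokinesis and mitotic exit. They were taken by gene symbol from a named list, and all 44 were found among the 17933 genes of the deposited table. Bulk RNA of kidney tissue was sequenced from male wild-type C57BL/6 mice aged 6 to 8 weeks, in 2 groups of 3 samples. Stone mice had received 120 mg/kg of glyoxylic acid, a precursor of oxalate, by daily intraperitoneal injection over 12 days, which leads to calcium oxalate crystals in the kidney. Control mice had received saline in the same volume. The unit is FPKM, which by definition normalises fragments for gene length and library total, so levels are set beside each other between genes. The annotation and the divisor behind these values are not stated, which limits such comparisons. Whether each sample is a separate mouse is not spelled out in the labels, so the p-values reflect the spread between samples that may be technical replicates.

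The tissue carried the markers of kidney in both groups. The proximal tubule phosphate transporter gene Slc34a1 averaged 1661 ± 248 FPKM in stone kidneys and 2617 ± 219 FPKM in control kidneys, and the thick limb gene Umod 1299 ± 391 FPKM in stone kidneys and 1670 ± 127 FPKM in control kidneys (SD, n = 3 each). FPKM sums were 609705 to 613885 in stone samples and 711768 to 758514 in control samples, and the number of genes above 0 was 16165 to 16528 in stone samples and 15905 to 15966 in control samples. In whole kidney RNA, more cells of a type and more RNA per cell cannot be told apart.

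Cells of the adult kidney divide rarely, and tubule cells re-enter the cell cycle after injury. Many mitotic genes share 1 mode of regulation, known from cultured mammalian cells: in resting cells the DREAM complex, which contains the MuvB core, binds their promoters and keeps them silent, and in G2 and mitosis MuvB joins B-Myb and FOXM1 and the same promoters become active. MuvB reads a short promoter element, the cell cycle genes homology region (CHR), which often lies close to the transcript start with CCAAT boxes, the sites of the factor NF-Y, a short distance upstream. Some of their proteins, the B-type cyclins among them, are destroyed at the end of mitosis through the anaphase-promoting complex (APC/C).

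Mitotic transcripts were more abundant in stone kidneys, from very low levels in control kidneys. The summed FPKM of the 44 genes was 165 (sample 1), 211.5 (sample 2) and 173 (sample 3) in stone kidneys, against 50.5, 52.6 and 54.5 in control kidneys. Without Spc25, which alone gave 17.8 to 25.2 FPKM in control kidneys, the sums were 138, 188 and 152 in stone kidneys, against 30.7, 27.4 and 36.7 in control kidneys. In 43 of the 44 genes the 3 stone values lay above the 3 control values, as they did for 41.3% of all genes above 0 in at least 1 sample, and in 0 genes they lay below, against 13.1% of all genes. Among the 32 genes that averaged at least 1 FPKM over the 6 samples, 31 had such separate groups, against 49.8% of all genes at that level. Spc25 was the gene whose groups overlapped. The ratio of mean FPKM in stone kidneys to mean FPKM in control kidneys ran from 1.13 for Spc25 to 12.9 for Ccnb2, with a median of 5.56, and it reached 2 for 41 genes, 5 for 26 and 10 for 6.

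**Figure D1:**
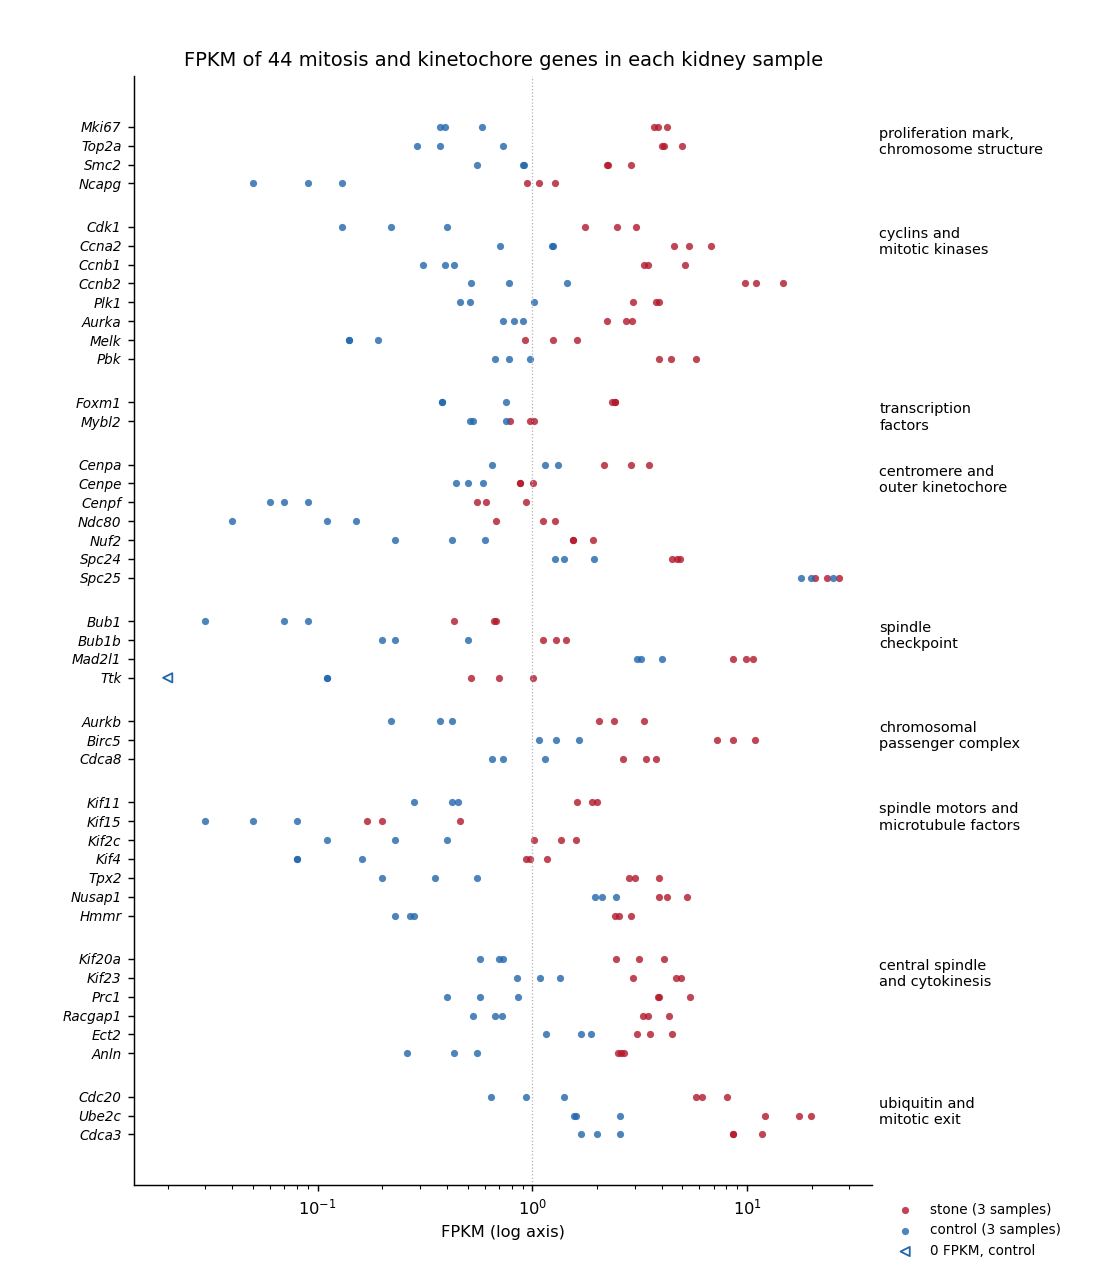
FPKM of each gene in each sample on a log axis, with stone samples in red and control samples in blue, grouped by role; the dotted line marks 1 FPKM, and the open triangle at the left edge stands for the 1 value of 0, Ttk in a control sample. Red and blue points are apart in 43 of 44 rows and mixed in the row of Spc25, at 20.7 to 26.7 FPKM in stone and 17.8 to 25.2 FPKM in control samples.

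The comparison was tested with limma on log2(FPKM + 1), over the 12319 genes that averaged 1 FPKM or more across the 6 samples, with the Benjamini-Hochberg adjustment over all of them and a threshold of 0.05. Of the 44 genes, 32 reached that level. A gene that is low in control kidneys reaches it only through the stone samples, so the count of calls over these 32 is biased upward and is given as a description. Of them 31 were higher and 0 lower in stone kidneys, and 0 were lower at an unadjusted p under 0.05, while over all tested genes 43.5% were higher and 13.9% lower. With a log2 change of at least 1 as well, 25 of the 32 were higher, against 7.32% of all tested genes. Of the 11 genes that averaged at least 1 FPKM in control kidneys alone, a choice made after the data were seen, 10 were higher, with log2 changes of 0.78 to 2.58, and in a fit over all genes that met that level 41.7% were higher. Without any filter all 44 were tested and 43 were higher, against 33.3% of all genes in that fit. Of these, Mybl2 and Kif15 were near the threshold (limma, adjusted p = 0.0417 and 0.0464). With a filter at a mean of 0.3 FPKM, 43 were tested and 41 were higher, where 5797 of all 13843 tested genes were higher. Mybl2 did not pass there (limma, adjusted p = 0.0673).

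The 31 calls held under the other ways of scaling the samples. Across the 44 genes the median log2 change was 1.20, beside a median of 0.21 over all tested genes and 0.13 over all genes without a filter. Dividing each sample by its median-of-ratios size factor moved the median of all tested genes by -0.22, and the share of all tested genes called higher was then 22.5%. The same 31 genes kept their call after that scaling (adjusted p from limma of at most 0.00812), after quantile normalization (at most 0.0198) and with equal FPKM sums (at most 0.00126). They also kept it without any 1 of the 6 samples. The pseudocount of 1 understates the change of genes this low: with 0.1 in its place the change of Ccnb2 was 3.64 and not 2.75.

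**Figure D2:**
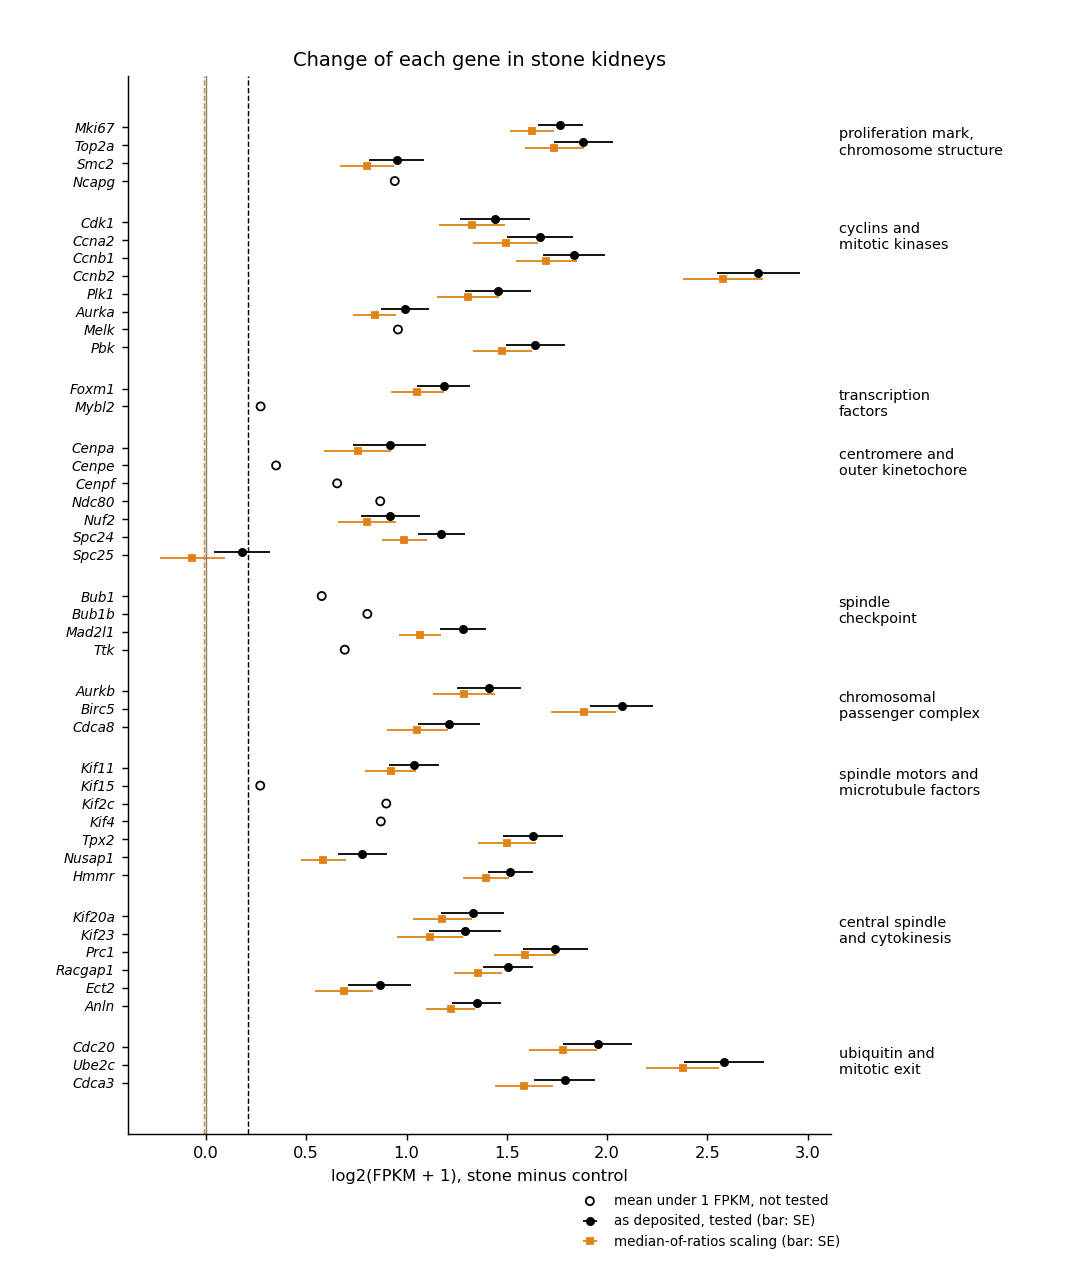
Difference of mean log2(FPKM + 1), stone minus control, for each gene, as deposited (black) and after median-of-ratios scaling (orange), with bars of 1 SE; open circles are the 12 genes with a mean under 1 FPKM, which were not tested, and dashed lines are the medians of all tested genes, 0.21 as deposited and -0.01 after scaling. All tested genes but Spc25 lie to the right of both lines, from 0.78 for Nusap1 to 2.75 for Ccnb2 as deposited.

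Since the CHR is the shared element of mitotic promoters, it was searched for in the RefSeq promoter windows of build GRCm38.p6, which run from 250 bases before to 50 bases after each annotated transcript start. The letters searched were TTTGAA and TTCGAA for the CHR and CCAAT for the CCAAT box, each on both strands, and overlapping matches on opposite strands were each counted. Windows were held for 37 of the 44 genes, 39 windows in all, since Prc1 and Ect2 have 2 overlapping windows each. No window was held for Aurkb, Ccna2, Foxm1, Kif20a, Pbk, Spc24 and Tpx2. A CHR was present in 31 of the 39 windows (79.5%), against 19.2% of all 32851 windows. Within 50 bases on either side of the start, a span set after the positions were seen, it was present in 29 of 39 (74.4%), against 5.31% of all windows. A CCAAT box was found in 74.4% of the 39 windows and in 37.4% of all windows, and at least 2 of them in 48.7% of the 39 and in 11.7% of all. In the 141 windows of the other cell cycle genes described below, these shares were 57.4% and 28.4%. A CHR near the start together with a CCAAT box anywhere in the window occurred in 26 of 39 windows (66.7%), against 2.24% of all. A match of letters is a description and not evidence that a factor is bound there.

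The 8 stretches printed here show the arrangement in 5 genes that rose, in Spc25, which did not pass, and in Mad2l1 and Mybl2, whose windows held neither motif. Each is 100 bases, 5′ to 3′ on the strand of the gene, from 70 bases before the start to 30 bases from it on, with CHR and CCAAT matches on either strand in capitals.
Ccnb2, chr9:70421525-70421624, minus strand: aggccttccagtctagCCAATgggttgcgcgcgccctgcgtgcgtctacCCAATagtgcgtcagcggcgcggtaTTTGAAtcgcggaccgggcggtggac
Cdk1, chr10:69352883-69352982, minus strand: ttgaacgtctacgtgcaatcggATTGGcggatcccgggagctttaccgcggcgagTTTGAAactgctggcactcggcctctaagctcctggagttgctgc
Cdc20, chr4:118437314-118437413, minus strand: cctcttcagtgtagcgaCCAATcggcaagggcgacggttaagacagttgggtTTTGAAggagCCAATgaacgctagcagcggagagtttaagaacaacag
Hmmr, chr11:40733408-40733507, minus strand: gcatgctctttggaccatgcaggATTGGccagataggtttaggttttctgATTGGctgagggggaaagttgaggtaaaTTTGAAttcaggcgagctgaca
Ube2c, chr2:164769859-164769958, plus strand: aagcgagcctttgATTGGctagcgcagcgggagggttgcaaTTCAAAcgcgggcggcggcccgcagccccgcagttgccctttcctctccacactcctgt
Spc25, chr2:69206184-69206283, minus strand: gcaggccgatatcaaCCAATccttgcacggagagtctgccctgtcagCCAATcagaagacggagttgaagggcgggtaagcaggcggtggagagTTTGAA
Mad2l1, chr6:66535151-66535250, plus strand: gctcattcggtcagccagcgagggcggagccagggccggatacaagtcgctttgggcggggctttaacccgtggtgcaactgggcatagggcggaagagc
Mybl2, chr2:163054565-163054664, plus strand: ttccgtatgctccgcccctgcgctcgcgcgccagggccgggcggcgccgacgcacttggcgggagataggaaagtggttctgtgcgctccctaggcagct

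In these stretches the first base of the CHR lay 18 bases before the start in Cdc20, 15 before it in Cdk1 and 29 before it in Ube2c, and at position 5 from the start in Ccnb2, 9 in Hmmr and 25 in Spc25. Ccnb2, Hmmr and Spc25 have 2 CCAAT boxes upstream of the CHR in the stretch, in a like layout, and their ratios of mean FPKM in stone to control kidneys were 12.9, 10.1 and 1.13. Among the 37 genes with a window, the 27 with a CHR near the start had a median ratio of 6.27, with a range of 1.13 to 12.9. The 10 without one had a median ratio of 4.69, with a range of 1.55 to 10.5, so the ranges overlapped over most of their span and no test was run.

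**Figure D3:**
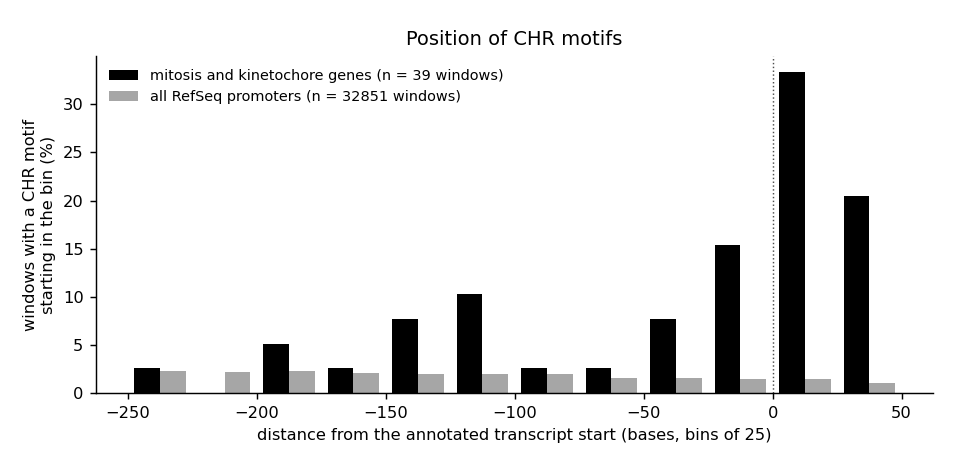
Share of promoter windows in which a CHR match starts in each bin of 25 bases, by distance from the annotated transcript start, for the mitosis and kinetochore genes (black) and all RefSeq windows (grey). The black bars rise to 33.3% of 39 windows in the bin that begins at the start, where the grey bar is at 1.43%.

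Among the genes of the proliferation mark and of chromosome structure, Mki67, which encodes the Ki-67 protein that coats mitotic chromosomes, had 3.68, 4.23 and 3.84 FPKM in stone kidneys, against 0.37, 0.39 and 0.58 FPKM in control kidneys. It rose by 1.77 on the log2 scale with an SE of 0.11 (limma, adjusted p = 4.84e-05). Top2a, the topoisomerase that untangles sister chromatids, had 4.09, 4.97 and 4.03 FPKM in stone kidneys, against 0.29, 0.37 and 0.73 FPKM in control kidneys, a log2 change of 1.88 (SE 0.15, limma, adjusted p = 0.000102). For both genes the lowest stone value was more than 5 times the highest control value. Smc2, the ATPase shared by both condensins, had 2.22, 2.87 and 2.26 FPKM in stone kidneys, against 0.91, 0.55 and 0.90 FPKM in control kidneys. Ncapg, a subunit of condensin I, was under the level for testing, at 1.1 ± 0.172 FPKM in stone kidneys and 0.0900 ± 0.0400 FPKM in control kidneys (SD, n = 3 each). The level of Smc2 over that of Ncapg was 2.07 to 2.40 in stone samples, against 7 to 11 in control samples. The control ratios are imprecise, since they divide by Ncapg values of 0.05 to 0.13 FPKM listed with 2 decimals.

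The cyclins and mitotic kinases held the member with the largest change. Ccnb2, cyclin B2, had 9.77, 14.65 and 11.06 FPKM in stone kidneys, against 0.78, 0.52 and 1.45 FPKM in control kidneys. It rose by 2.75 on the log2 scale (SE 0.21, limma, adjusted p = 8.74e-05), and the lowest stone value stood well apart from the highest control value. Ccnb1, cyclin B1, the other activator of the mitotic kinase CDK1, had 3.31, 5.14 and 3.47 FPKM in stone kidneys, against 0.31, 0.43 and 0.39 FPKM in control kidneys. Ccnb2 was at 2.85 to 3.19 times the level of Ccnb1 in stone samples and at 1.21 to 3.72 times in control samples. Cdk1 itself had 1.75, 3.05 and 2.48 FPKM in stone kidneys, against 0.22, 0.13 and 0.40 FPKM in control kidneys. Ccna2, cyclin A2, which acts in S phase and on the way into mitosis, had 5.36, 6.77 and 4.58 FPKM in stone kidneys, against 1.24, 0.71 and 1.25 FPKM in control kidneys. These 3 genes rose by 1.84, 1.44 and 1.67 in the order given (limma, adjusted p = 0.000146, 0.000595 and 0.000266).

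The kinases moved likewise. Plk1, the polo-like kinase of mitotic entry and spindle assembly, had 2.95, 3.90 and 3.75 FPKM in stone kidneys, against 0.51, 0.46 and 1.02 FPKM in control kidneys. Aurka, the Aurora kinase of the spindle poles, had 2.23, 2.73 and 2.91 FPKM in stone kidneys, against 0.82, 0.73 and 0.90 FPKM in control kidneys. Pbk, a kinase made in dividing cells, had 4.41, 5.76 and 3.87 FPKM in stone kidneys, against 0.67, 0.97 and 0.78 FPKM in control kidneys. All 3 rose, with log2 changes of 1.46, 0.99 and 1.64 in that order (limma, adjusted p = 0.000414, 0.000553 and 0.000171), and in none did a stone value reach down to a control value. Melk, another kinase of dividing cells, averaged 1.26 ± 0.350 FPKM in stone kidneys and 0.157 ± 0.0289 FPKM in control kidneys (SD, n = 3 each) and was not tested.

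Of the 2 transcription factors, Foxm1, the activator of late mitotic genes, had 2.35, 2.42 and 2.42 FPKM in stone kidneys, against 0.38, 0.38 and 0.75 FPKM in control kidneys, and rose by 1.19 on the log2 scale (SE 0.13, limma, adjusted p = 0.000429). Its spread between stone samples was the smallest of the 44 genes, with an SD of 1.69% of the mean, against 42.4% in control samples. Mybl2, which encodes B-Myb, differed less, at 1.02, 0.97 and 0.79 FPKM in stone kidneys, against 0.53, 0.75 and 0.51 FPKM in control kidneys. The lowest stone value of Mybl2, 0.79 FPKM, lay just above its highest control value, 0.75 FPKM. Mybl2 was under the level for testing, and its difference of 0.27 on the log2 scale was -0.03 after quantile normalization. Foxm1 was at 2.30 to 3.06 times the level of Mybl2 in stone samples, against 0.507 to 1.47 times in control samples.

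At the centromere, Cenpa, the histone H3 variant that marks it, had 2.16, 2.89 and 3.48 FPKM in stone kidneys, against 1.31, 0.65 and 1.15 FPKM in control kidneys, a log2 change of 0.92 (SE 0.18, limma, adjusted p = 0.00459). Among the 31 genes that rose, Cenpa had the highest adjusted p. Cenpe, the kinesin of the kinetochore, and Cenpf, a large kinetochore protein, were under the level for testing. Cenpe averaged 0.923 ± 0.0751 FPKM in stone kidneys and 0.51 ± 0.0755 FPKM in control kidneys, and Cenpf 0.697 ± 0.204 FPKM in stone kidneys and 0.0733 ± 0.0153 FPKM in control kidneys (SD, n = 3 each). The ratio of means was thus 1.81 for Cenpe and 9.50 for Cenpf. After quantile normalization the log2 change of Cenpe went from 0.35 to 0.06, and that of Cenpf from 0.65 to 0.51.

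The NDC80 complex, the part of the kinetochore that grips microtubules, has 4 subunits, and Spc25 did not move with the other 3. Ndc80 had 0.68, 1.27 and 1.12 FPKM in stone kidneys, against 0.15, 0.11 and 0.04 FPKM in control kidneys, and was under the level for testing. Nuf2, its partner, had 1.55, 1.92 and 1.54 FPKM in stone kidneys, against 0.23, 0.42 and 0.60 FPKM in control kidneys, and rose by 0.92 (limma, adjusted p = 0.0018). Spc24, which pairs with SPC25 at the inner end of the complex, had 4.49, 4.89 and 4.71 FPKM in stone kidneys, against 1.28, 1.41 and 1.93 FPKM in control kidneys, and rose by 1.17 (SE 0.12, limma, adjusted p = 0.000277). In these 3 genes the groups were apart.

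Spc25 had 26.68, 23.68 and 20.73 FPKM in stone kidneys, against 19.78, 25.22 and 17.82 FPKM in control kidneys. The groups overlapped, and the log2 change of 0.18 (SE 0.14) did not pass (limma, adjusted p = 0.304). The estimate was -0.07 once median-of-ratios factors were applied (limma, adjusted p = 0.757), -0.0038 after quantile normalization (limma, adjusted p = 0.985) and 0.45 with equal FPKM sums, where it was called higher (limma, adjusted p = 0.0147). With the gene Kap left out of those sums the estimate was 0.14 and did not pass (limma, adjusted p = 0.351). Spc25 was at 4.40 to 5.94 times the level of Spc24 in stone kidneys, against 9.23 to 17.9 times in control kidneys. Against Ndc80 the ratio was 18.5 to 39.2 in stone samples and 132 to 445.5 in control samples. The control ratios are imprecise, since they divide by Ndc80 values of 0.04 to 0.15 FPKM listed with 2 decimals. Spc25 spans chr2:69193895-69206213 (GRCm38.p6) and overlaps no other RefSeq gene. Its coding neighbours are Nostrin, with 3.19, 3.73 and 3.33 FPKM in stone kidneys, against 0.82, 1.15 and 1.1 FPKM in control kidneys, and G6pc2, which was at 0.19 FPKM or less in every sample.

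**Figure D4:**
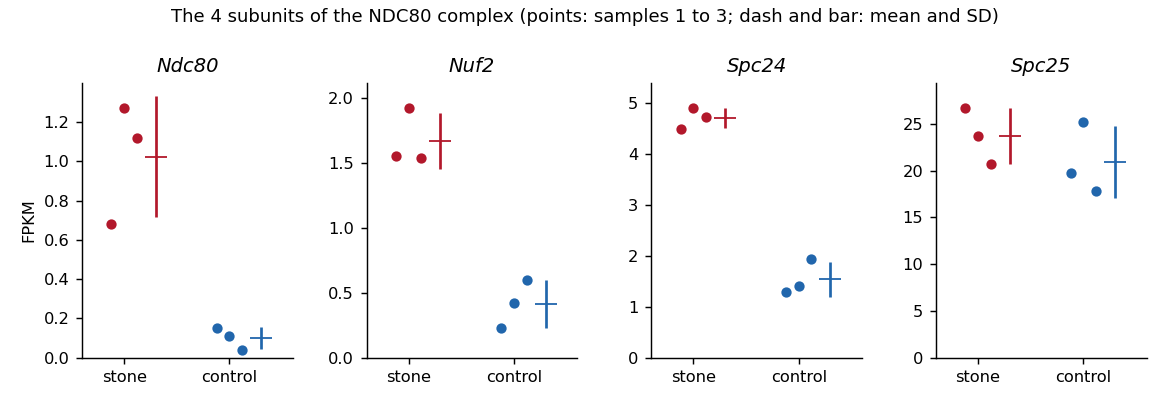
FPKM of the 4 subunit genes of the NDC80 complex in stone (red) and control (blue) samples, with a separate axis from 0 for each gene; points are samples and the dash and bar beside them are the mean and SD of 3. Stone and control points are apart for Ndc80, Nuf2 and Spc24 and overlap for Spc25, which averaged 23.7 ± 2.98 FPKM in stone and 20.9 ± 3.83 FPKM in control samples.

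Of the spindle checkpoint genes, Mad2l1 was abundant enough to be tested. It encodes MAD2, which holds back the APC/C until every kinetochore is attached, and had 8.63, 10.64 and 9.94 FPKM in stone kidneys, against 4.01, 3.06 and 3.19 FPKM in control kidneys. It rose by 1.28 on the log2 scale (SE 0.11, limma, adjusted p = 0.000171), and the groups were far apart relative to their spread. The checkpoint kinase genes Bub1 and Ttk and the gene of the pseudokinase BUBR1, Bub1b, were under the level for testing. Bub1 averaged 0.59 ± 0.139 FPKM in stone kidneys and 0.0633 ± 0.0306 FPKM in control kidneys, Bub1b 1.28 ± 0.155 FPKM in stone kidneys and 0.31 ± 0.165 FPKM in control kidneys, and Ttk 0.743 ± 0.248 FPKM in stone kidneys (SD, n = 3 each). Ttk was listed at 0.11, 0 and 0.11 FPKM in control kidneys. The ratio of means was 2.85 for Mad2l1 and 9.32 for Bub1.

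All 3 genes of the chromosomal passenger complex, which corrects faulty attachments, rose. Birc5, which encodes survivin, had 8.61, 10.85 and 7.22 FPKM in stone kidneys, against 1.65, 1.29 and 1.07 FPKM in control kidneys, a log2 change of 2.07 (SE 0.16, limma, adjusted p = 9.03e-05). Aurkb, the kinase of the complex, had 2.04, 3.32 and 2.39 FPKM in stone kidneys, against 0.37, 0.22 and 0.42 FPKM in control kidneys. Cdca8, which encodes borealin, had 2.65, 3.77 and 3.39 FPKM in stone kidneys, against 0.73, 1.15 and 0.65 FPKM in control kidneys. Birc5 was at 3.02 to 4.22 times the level of Aurkb in stone samples and at 2.55 to 5.86 times in control samples, so these ratios overlapped. The fourth subunit gene, Incenp, which is not among the 44, had 2.65, 3.56 and 3.84 FPKM in stone kidneys, against 1.16, 1.59 and 1.5 FPKM in control kidneys (limma, adjusted p = 0.00228), and is named here with its values already known.

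Among the spindle motors and microtubule factors, Tpx2, which activates Aurora A and nucleates spindle microtubules, had 2.82, 3.87 and 3.02 FPKM in stone kidneys, against 0.35, 0.20 and 0.55 FPKM in control kidneys, a log2 change of 1.63 (SE 0.15, limma, adjusted p = 0.000197). Hmmr, a spindle pole adaptor, had 2.53, 2.89 and 2.42 FPKM in stone kidneys, against 0.27, 0.28 and 0.23 FPKM in control kidneys, a log2 change of 1.52 (SE 0.11, limma, adjusted p = 8.74e-05). Kif11, the kinesin that pushes the spindle poles apart, had 1.90, 2.00 and 1.62 FPKM in stone kidneys, against 0.42, 0.28 and 0.45 FPKM in control kidneys. Nusap1, a microtubule bundler, had 3.89, 5.28 and 4.22 FPKM in stone kidneys, against 2.12, 1.96 and 2.44 FPKM in control kidneys, and with 0.78 had the smallest log2 change among the genes that rose (SE 0.12, limma, adjusted p = 0.00177). Its stone values were all above its control values, as were those of the other 3. The kinesin genes Kif15, Kif2c and Kif4 were under the level for testing, with means of 0.277, 1.33 and 1.03 FPKM in stone kidneys and 0.0533, 0.247 and 0.107 FPKM in control kidneys. Kif15 was the lowest of the 44 in stone kidneys.

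All 6 genes of the central spindle and of cytokinesis rose. Prc1, which bundles the microtubules of the central spindle, had 3.85, 5.43 and 3.90 FPKM in stone kidneys, against 0.57, 0.40 and 0.86 FPKM in control kidneys, the largest log2 change of the 6 at 1.74 (SE 0.16, limma, adjusted p = 0.000202). Racgap1, the GTPase activator of centralspindlin, had 3.26, 4.32 and 3.45 FPKM in stone kidneys, against 0.53, 0.67 and 0.72 FPKM in control kidneys. Kif23, its kinesin partner, had 2.95, 4.93 and 4.67 FPKM in stone kidneys, against 1.35, 1.09 and 0.85 FPKM in control kidneys. Groups were apart in all 3. Kif20a, a kinesin that carries the passenger complex to the central spindle, had 2.46, 4.11 and 3.14 FPKM in stone kidneys, against 0.70, 0.57 and 0.73 FPKM in control kidneys. Ect2, the exchange factor that activates RhoA for the contractile ring, had 3.06, 4.46 and 3.54 FPKM in stone kidneys, against 1.68, 1.16 and 1.87 FPKM in control kidneys. Anln, which encodes the ring scaffold anillin, had 2.60, 2.66 and 2.51 FPKM in stone kidneys, against 0.26, 0.43 and 0.55 FPKM in control kidneys. Ect2 had the smallest log2 change of the 6, at 0.87 (SE 0.16, limma, adjusted p = 0.00315).

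The genes of ubiquitin transfer and mitotic exit had some of the highest levels. Ube2c, the ubiquitin-conjugating enzyme that works with the APC/C, had 12.17, 19.89 and 17.48 FPKM in stone kidneys, against 1.6, 1.56 and 2.56 FPKM in control kidneys. Its log2 change of 2.58 (SE 0.20, limma, adjusted p = 9.81e-05) was exceeded among the 44 by Ccnb2, and its mean in stone kidneys, 16.5 FPKM, by Spc25. Cdc20, the activator of the APC/C, had 6.20, 8.07 and 5.77 FPKM in stone kidneys, against 0.93, 0.64 and 1.41 FPKM in control kidneys. Cdca3, a regulator of mitotic entry, had 8.64, 11.80 and 8.61 FPKM in stone kidneys, against 1.69, 2.00 and 2.56 FPKM in control kidneys. The stone values of Ube2c, Cdc20 and Cdca3 all lay above their control values.

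Among the 3 stone samples, sample 2 was the highest in 38 of 43 genes without a tie (88.4%), against 32.9% of all tested genes. It was the lowest in 0. Stone sample 1 was the lowest in 29 of 43 (67.4%), against 49.9% of all tested genes, and stone sample 3 in 14 (32.6%), against 27.1%. Markers of other cells also differed between the stone samples. The summed FPKM of 11 macrophage and monocyte markers was 236, 576 and 372 in stone samples 1 to 3, against 84.0, 76.4 and 82.2 in control samples. That of 7 markers of injured tubules was 727, 873 and 1550 in stone samples, against 89.6, 96.2 and 97.7 in control samples, and that of 6 fibroblast and pericyte markers 91.1, 147 and 154 in stone samples, against 33.6, 31.0 and 41.0 in control samples. Where 43.5% of all tested genes were higher and 13.9% lower, 10 of 11 of the macrophage list were higher, of the injured tubule list 7 of 7 and of the fibroblast list 6 of 6. The summed level of 8 markers of T and NK cells was 1.59 to 1.80 FPKM in stone samples, against 2.48 to 3.98 FPKM in control samples. Of these 8 markers 0 were tested and 6 had overlapping groups. Among them Nkg7 averaged 0.12 FPKM in stone samples and 1.07 FPKM in control samples. The summed level of 6 erythroid genes was 597.5 to 759 FPKM in stone samples, against 2169 to 3170 FPKM in control samples. Of 5 tested erythroid genes 5 were lower. Of the remaining marker lists, endothelium had 4 of 6 genes higher, podocytes 4 of 5, neutrophils 3 of 3 tested and B and plasma cells 0 of 1 tested, while the proximal tubule had 1 higher and 3 lower of 6 and the thick limb, distal tubule and collecting duct 1 higher and 2 lower of 7. The neutrophil genes Ly6g, Mmp8 and Camp were listed at 0 in every control sample, and no other marker was at 0 throughout a group. Which cells carried the mitotic transcripts, and the part of these markers in their level, was not tested.

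The other genes of the pathway, on lists that do not include the 44, moved less. Of 147 such genes 115 were tested, 82 were higher and 4 lower in stone kidneys, and after median-of-ratios scaling 48 were higher and 12 lower. Over all tested genes 43.5% were higher and 13.9% lower as deposited, and 22.5% higher and 26.2% lower after that scaling, and each list is to be read against these shares. The median log2 change over the 147 was 0.48. At the inner kinetochore, 8 of 11 tested genes of the constitutive centromere network were higher, and 5 higher and 2 lower after that scaling. Cenpt, the subunit that can recruit the NDC80 complex, had 3.03, 3.52 and 4.14 FPKM in stone kidneys, against 1.23, 0.77 and 0.93 FPKM in control kidneys, and Cenpm rose by 1.17 (limma, adjusted p = 0.000786). Of the KNL1, MIS12, RZZ and SKA complexes, 6 of 8 tested genes were higher, 3 of them after scaling, among them Zwilch, a subunit of the RZZ complex that brings MAD proteins to the kinetochore, with a log2 change of 1.00 (limma, adjusted p = 0.000433), and Spdl1, which recruits dynein, with 0.60 (limma, adjusted p = 0.00523).

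Of the 15 tested genes of the APC/C, which the products of Cdc20 and Ube2c serve, 7 were higher and 1 lower as deposited, a share higher that is near the 43.5% of all tested genes. After median-of-ratios scaling 0 were higher and 4 lower, where 22.5% of all tested genes were higher and 26.2% lower. Anapc5 and Anapc11 were higher by 0.30 and 0.32 as deposited, and by 0.05 and 0.09 after scaling, where neither passed (limma, adjusted p = 0.599 and 0.314). Anapc13, a small subunit, had 204, 200 and 199 FPKM in stone kidneys, against 356, 382 and 293 FPKM in control kidneys (log2 change -0.76, limma, adjusted p = 0.000859, and -1.02 after scaling). Of the other condensin subunits 4 of 5 tested were higher, led by Ncaph, the kleisin of condensin I, with 2.11, 2.48 and 2.36 FPKM in stone kidneys, against 0.32, 0.21 and 0.27 FPKM in control kidneys, and Smc4 rose by 0.52 (limma, adjusted p = 0.00229). Of 11 tested cohesin genes 9 were higher as deposited and 2 after scaling. Stag1 kept its call (log2 change 0.25 after scaling, limma, adjusted p = 0.0313) and Smc3 did not (limma, adjusted p = 0.0558). Pttg1, which encodes securin, the inhibitor of separase, was lower, with 68.7, 67.5 and 75.7 FPKM in stone kidneys, against 89.8, 99.0 and 81.5 FPKM in control kidneys (log2 change -0.34, limma, adjusted p = 0.0122). Scaling to equal FPKM sums ended the Pttg1 call (limma, adjusted p = 0.44). With the gene Kap left out of those sums the call held (limma, adjusted p = 0.00422).

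Of 14 tested genes among the other spindle, kinesin and centrosome genes, 9 were higher and 1 lower. Kifc1, a minus-end kinesin, and Ckap2, a spindle protein, had log2 changes of 1.13 and 1.5 (limma, adjusted p = 0.000274 and 0.000444) and so rose. Kif20b, a kinesin of late cytokinesis and a paralog of Kif20a, moved the other way. It had 0.93, 1.46 and 1.33 FPKM in stone kidneys, against 7.61, 6.36 and 5.81 FPKM in control kidneys, and fell by 1.76 (SE 0.13, limma, adjusted p = 9.43e-05). That call held under every alternative listed for the 44 genes, with log2 changes of -2.33 to -1.56. The lowest control value of Kif20b lay above its highest stone value, and in control kidneys its level was above that of each of the 44 genes other than Spc25.

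Of the regulators of entry, 6 of 8 tested genes were higher, also after scaling, among them Cdc25a, a phosphatase that activates cyclin-dependent kinases, by 0.74, and Pkmyt1, a kinase that holds CDK1 back, by 1.09 (limma, adjusted p = 0.000566 and 0.000986). The DREAM, MuvB and E2F regulators had 8 of 15 tested genes higher and 1 lower, and 2 higher and 4 lower after scaling, which is near the shares of all tested genes (43.5% higher and 13.9% lower as deposited, 22.5% and 26.2% after scaling). The 2 that stayed higher were E2f1, with 3.13, 4.00 and 4.33 FPKM in stone kidneys, against 0.89, 1.13 and 0.77 FPKM in control kidneys, and its partner gene Tfdp1, with a log2 change of 0.63 as deposited and 0.39 after scaling (limma, adjusted p = 0.000625 and 0.00427). Lin52, a MuvB subunit gene, was lower by a log2 change of -0.25 (limma, adjusted p = 0.0272). This call ended when FPKM sums were made equal (log2 change 0.0070, limma, adjusted p = 0.949). It held when the gene Kap was left out of those sums (log2 change -0.29, limma, adjusted p = 0.0312). The Lin52 call also ended without stone sample 1, 2 or 3 or control sample 2 or 3, with limma adjusted p of 0.0522 to 0.076.

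Upstream of mitosis, 5 of 6 tested G1 cyclins and their kinases were higher, 3 of them after scaling. Ccnd1, cyclin D1, had 164, 145 and 135 FPKM in stone kidneys, against 47.0, 37.8 and 59.7 FPKM in control kidneys (log2 change 1.62, limma, adjusted p = 0.000265), and Cdk4 rose by 0.82 (limma, adjusted p = 7.8e-05). Of the replication genes on the MCM and fork list, 15 of 15 tested were higher, 14 of them after scaling, and the smallest adjusted p were those of Mcm5 and Mcm3, which had log2 changes of 1.32 and 1.58. Mki67 was at 0.424 to 0.468 times the level of Mcm2 in stone samples, against 0.0692 to 0.116 times in control samples. Inhibitors were higher in the same kidneys. Cdkn1a, which encodes p21, had 28.8, 37.8 and 37.6 FPKM in stone kidneys, against 3.17, 3.2 and 3.98 FPKM in control kidneys (log2 change 3.00, SE 0.13, limma, adjusted p = 1.42e-05), and 5 of 7 tested genes of the inhibitor list were higher, 3 of them after scaling. Cdkn3, a phosphatase that acts on CDKs, had 9.19, 10.4 and 8.86 FPKM in stone kidneys, against 0.65, 0.73 and 0.98 FPKM in control kidneys (limma, adjusted p = 1.42e-05). Cdkn2a was listed at 0 in every sample.

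**Figure D5:**
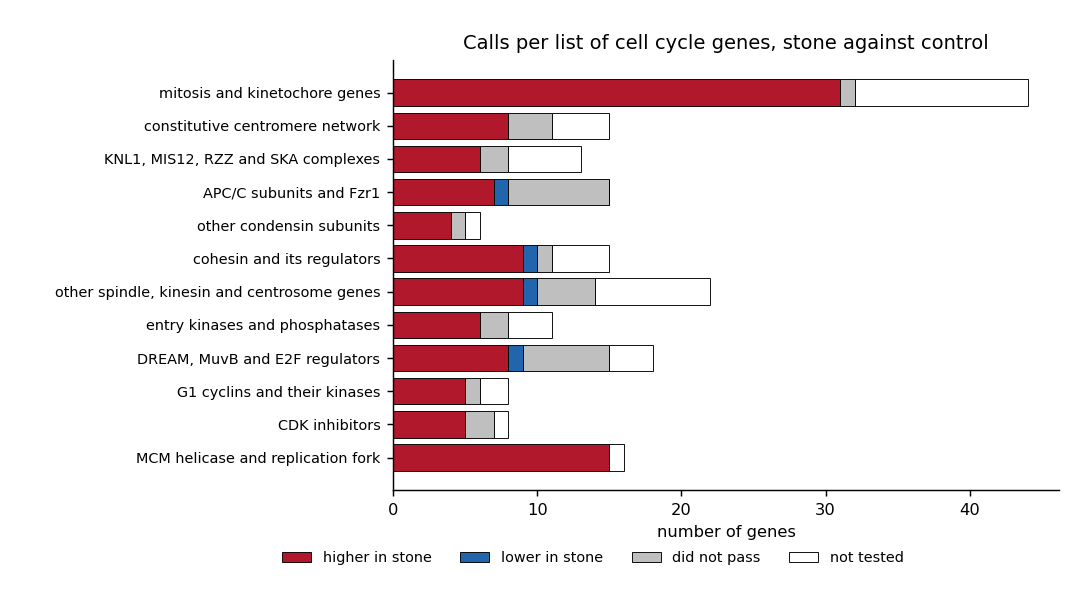
Number of genes per list that were higher (red), lower (blue) or did not pass (grey) in stone against control kidneys as deposited, with untested genes in white. The mitosis and kinetochore list has 31 higher of 32 tested, the MCM and fork list 15 of 15, and the APC/C list 7 higher and 1 lower of 15. Over all tested genes 43.5% were higher and 13.9% lower. Genes low in control kidneys were tested only through their stone values, which biases the counts of higher genes upward.

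The CHR near the start was less common in these lists than in the 44 genes. It was in 29 of 141 windows of the other pathway genes (20.6%), where 5.31% of all windows held it. By list it was in 9 of 20 windows of the other spindle, kinesin and centrosome genes (45%), in 4 of 10 of the KNL1, MIS12, RZZ and SKA complexes (40.0%), in 2 of 6 of the condensins (33.3%), in 4 of 14 of cohesin and its regulators (28.6%), in 5 of 18 of the DREAM, MuvB and E2F regulators (27.8%), in 2 of 8 of the entry kinases and phosphatases (25%), in 2 of 18 of the centromere network (11.1%), in 1 of 14 of the MCM and fork genes (7.14%), and in 0 of 17 of the APC/C, 0 of 6 of the G1 cyclins and kinases and 0 of 10 of the inhibitors. At 5.31%, lists this short would often hold none. The CCAAT box was less particular to the 44 genes. It was in 57.4% of the 141 windows, against 74.4% of the windows of the 44 genes. By list its share ran from 16.7% (condensins) to 87.5% (entry kinases and phosphatases), with the centromere network at 77.8% and the APC/C at 41.2%.

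Overlapping genes limit some of the values. In RefSeq, 9 of the 44 genes overlap another coding gene at some point of their span: Ncapg, Ccna2, Aurka, Foxm1, Nusap1, Kif20a, Prc1, Anln and Cdc20. With non-coding genes and pseudogenes included, 17 of the 44 overlap another annotated gene. The added ones are Top2a, Smc2, Mybl2, Kif11, Kif15, Kif4, Tpx2 and Ect2. The library kept the strand of origin, but nothing used here states whether the counting took account of strand. The values of these 17 genes are thus less certain than those of the rest of the 44. For the genes of the other lists, Kif20b among them, overlap was not examined. Depth is unknown for FPKM, so no counting intervals are given.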

How the data were processed

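RNA of whole kidneys was sequenced in 3 stone and 3 control samples from dUTP libraries made into DNA nanoballs, per the labels' protocols. The submitters' processing notes name HISAT2 2.0.4 and the build GRCm38.p6. The deposited values are FPKM made by the authors, with 1 column per sample and 2 decimals. For the quantifier, its annotation and the FPKM divisor the sources give nothing. As FPKM hold no counts, count models were not applied. The worth of 1 fragment, read from 18 genes at 0 in some samples, differed between samples by -0.10 to 0.08 log2 units, a measure held small by how those genes were chosen.

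Values were transformed to log2(FPKM + 1), filtered at a mean of 1 FPKM (12319 genes) and fitted with limma 3.58.1 in R 4.3.3 (eBayes with a trend, two-sided), with Benjamini-Hochberg adjustment over all tested genes at 0.05. An exact permutation test of 3 against 3 cannot go below p = 0.1. The code was tested on simulated data. Alternatives covered the pseudocount, the filter, scaling, the replicate number as a block and leaving out each sample. Those that leave out 1 sample used the genes that passed in all 6. Promoters and coordinates come from RefSeq, GRCm38.p6. Figures were drawn with matplotlib 3.10.9.

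The 44 members and the lists were chosen with earlier results of these data known. Per-sample values are given for members with a mean of at least 1 FPKM and, in each role, the highest and the most changed one. Those of Ndc80, of Mybl2 and of Ttk in control kidneys fall outside this rule and were added with the data seen. In each other list the called genes with the smallest p are named, up to 2 in each direction.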

Additional observations from a re-analysis of the deposited data

How the results depend on the processing

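The 31 calls among the 44 genes held under each alternative that tested them, and 0 members were called lower in any. Leaving out 1 sample left 31 members higher each time. With the filter on control kidneys alone, chosen after seeing the data, fewer genes were tested and 10 members were higher. The median log2 change of the tested members was 1.43 as deposited, 2.31 and 1.84 with pseudocounts of 0.1 and 0.5, 1.20 with no filter, 1.21 with a filter at 0.3 FPKM and 1.12 after quantile normalization. The log2 change of the summed FPKM of the 44 genes was 1.79 as deposited, 1.54 with median-of-ratios factors and 2.07 when FPKM sums were made equal. The other pathway genes numbered 48 higher and 12 lower after median-of-ratios scaling, 41 and 10 after quantile normalization, and 2 lower with equal FPKM sums. All tested genes numbered 2776 higher and 3222 lower, 2762 and 3108, and 8440 and 797 under these scalings, against 5356 and 1711 as deposited, so the share of calls that were higher was 46.3%, 47.1% and 91.4%, against 75.8%. The log2 change of Spc25 was -0.068 with median-of-ratios factors and -0.0038 after quantile normalization, and that of Mybl2 was -0.025 after quantile normalization. With the gene Kap left out of the equal FPKM sums, 4528 of all tested genes were higher and 1831 lower, so 71.2% of calls were higher. Under that scaling the log2 change of the summed FPKM of the 44 genes was 1.76. The cause of these shifts was not tested. Same-numbered stone and control samples did not deviate together (r across genes of 0.0075, -0.22 and -0.0397 for numbers 1 to 3), so the numbers were not taken as pairs, and with the replicate block 31 members were higher. FPKM without counts leave the precision of the lowest genes unknown.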
